A study of Mus musculus with 48 samples.

Results

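The genes described are 42 genes of DNA repair and of the signalling that starts it, followed through 1 day in epidermal stem cells (EpSCs) of young and aged mice. They were chosen by name: a probe set of the array was used if its only gene symbol was that of a listed gene, and where several qualified, the one with the highest mean over all arrays stood for the gene. All 42 were found among the 17097 genes that the array names in this way. Of these, 40 were bright enough to be tested, among 12823 genes in all. The other 2, Rad54l and Lig4, had mean log2 signals of 3.67 and 3.69, below the limit of 3.96 under which genes were left out as dim. The RNA came from the epidermis of wild type female mice of the strain C57B6/J, with no treatment named in the labels. The ages were 8 weeks (young) and between 102 and 116 weeks (aged). Cells of both were taken at T0, T4, T8, T12, T16 and T20, which the design text gives as ZT0 to ZT20 in hours (by the usual definition lights turn on at ZT0), with 4 mice per age and time and therefore 24 arrays per age. How the cells were isolated is not given in the sources used here.

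Cells mend DNA along several routes. Base excision repair removes single damaged bases and seals the nick that is left, nucleotide excision repair cuts out a short stretch around bulky lesions such as those made by ultraviolet light, and mismatch repair corrects errors of replication. Double-strand breaks are either rejoined directly by end joining or copied from the sister chromatid by homologous recombination, and the kinases of the damage response sense breaks and stalled forks and hold the cell cycle. Basal epidermal cells face both ultraviolet light and the errors of their own divisions, and in mouse skin DNA synthesis is known to follow the time of day.

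All values are log2 signals of 1 probe set per gene, so a difference of 1 is a doubling, and levels are compared between samples and not between genes. Array medians lay between 4.78 and 5.04, and the median correlation of an array with the others lay between 0.9747 and 0.9884. No arrays held identical values. The array of aged ZT12 replicate 1 and those of young ZT0 replicates 2 and 3 and young ZT4 replicate 1 fitted their groups least well. The 7 markers of basal keratinocytes had a mean of 11.40 ± 0.06 in young and 11.47 ± 0.07 in aged cells (SD, n = 24 each). Of the 7, 2 were higher in aged cells and 0 lower, where 9.89% and 8.73% of all genes were. The 2 were Krt14 (0.07) and Itgb4 (0.16; limma adjusted p = 0.0473 and 0.00777). Trp63 varied with time in aged cells (limma adjusted p = 0.0052). The 5 markers of suprabasal keratinocytes averaged 7.94 ± 0.19 and 7.83 ± 0.16. Of these, Krt1 and Krt10 stood at 11.67 and 11.71, and Flg was dim. Lor was lower in aged cells (-0.75, limma adjusted p = 0.000358), the only 1 of the 4 tested to differ in level. The part of suprabasal cells in the results below was not tested. Of the 5 markers of the follicle bulge, Cd34 and Lgr5 were dim, while Krt15 and Sox9 stood at 12.08 and 9.58. The list averaged 6.58 at both ages, but 2 of the 3 genes tested were lower in aged cells. These were Krt15 (-0.14) and Lhx2 (-0.29; limma adjusted p = 0.00272 and 0.0222), while Sox9 read 0.04 (0.819). The lists of fibroblast, endothelial and myeloid markers averaged between 3.77 and 3.93, at or below the dim limit, with some genes above it. These were Csf1r (5.26), Col1a1 (4.45), Dcn (4.40), Pecam1 (4.31) and Col1a2 (4.21), and none of them differed in level. Melanocyte markers averaged 5.20 ± 0.10 at both ages, with Mitf at 7.78, Pmel at 6.01 and Dct and Tyrp1 dim. Mitf varied with time in young cells (limma adjusted p = 0.0228), and the part of melanocytes in the results below was not tested. T cell markers averaged 4.36 ± 0.10 in young (range 4.21 to 4.65) and 4.57 ± 0.32 in aged cells (4.26 to 5.59). Of the 3 T cell genes tested, 2 (Cd3e and Cd3g) were higher in aged cells, and their part in the results below was not tested. In bulk RNA, fewer cells of a type and less RNA per cell cannot be told apart.

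The first question was which repair genes change through the day at each age. With the 6 times as a factor, 13 of the 40 genes (32.5%) varied in young cells, where 17.5% of all genes tested did (limma, Benjamini-Hochberg adjusted p under 0.05 over all genes, as throughout). In aged cells 5 of 40 (12.5%) varied, against 8.36% of all genes. The genes were chosen with earlier results of these data known. This and the later comparisons with all genes were therefore not blind to the data. Ung and Chek1 are the genes in both sets. The 13 of young cells were Apex1, Neil1, Parp1 and Ung of base excision repair, Ddb1, Ddb2, Xpa and Xpc of nucleotide excision repair, Exo1 of mismatch repair, Palb2 of recombination, the kinase gene Chek1, Xrcc5 of end joining and Rev3l of translesion synthesis. The 5 of aged cells were Ung, Neil3, Msh6, Brca2 and Chek1. A smooth 24 h cosine was a stricter shape: 2 of 40 genes (5%) passed it in young cells, Ung and Xpc, where 6.27% of all genes did, and 2 in aged cells, Ung and Chek1, where 1.36% did. The counts rest on which arrays are trusted. Without the 4 arrays that fitted least well 9 genes varied in young cells (16% of all genes did) and 11 in aged cells (16.5% of all genes). Apex1, Neil1, Parp1, Ddb1 and Palb2 were then lost in young cells and Brca1 was gained, and Polb, Xpa, Exo1, Blm, Atm and Xrcc5 were gained in aged cells. The cosine was then passed by 1 gene in young (Brca1; 4.54% of all genes) and 3 in aged cells (3.42% of all genes).

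**Figure D1:**
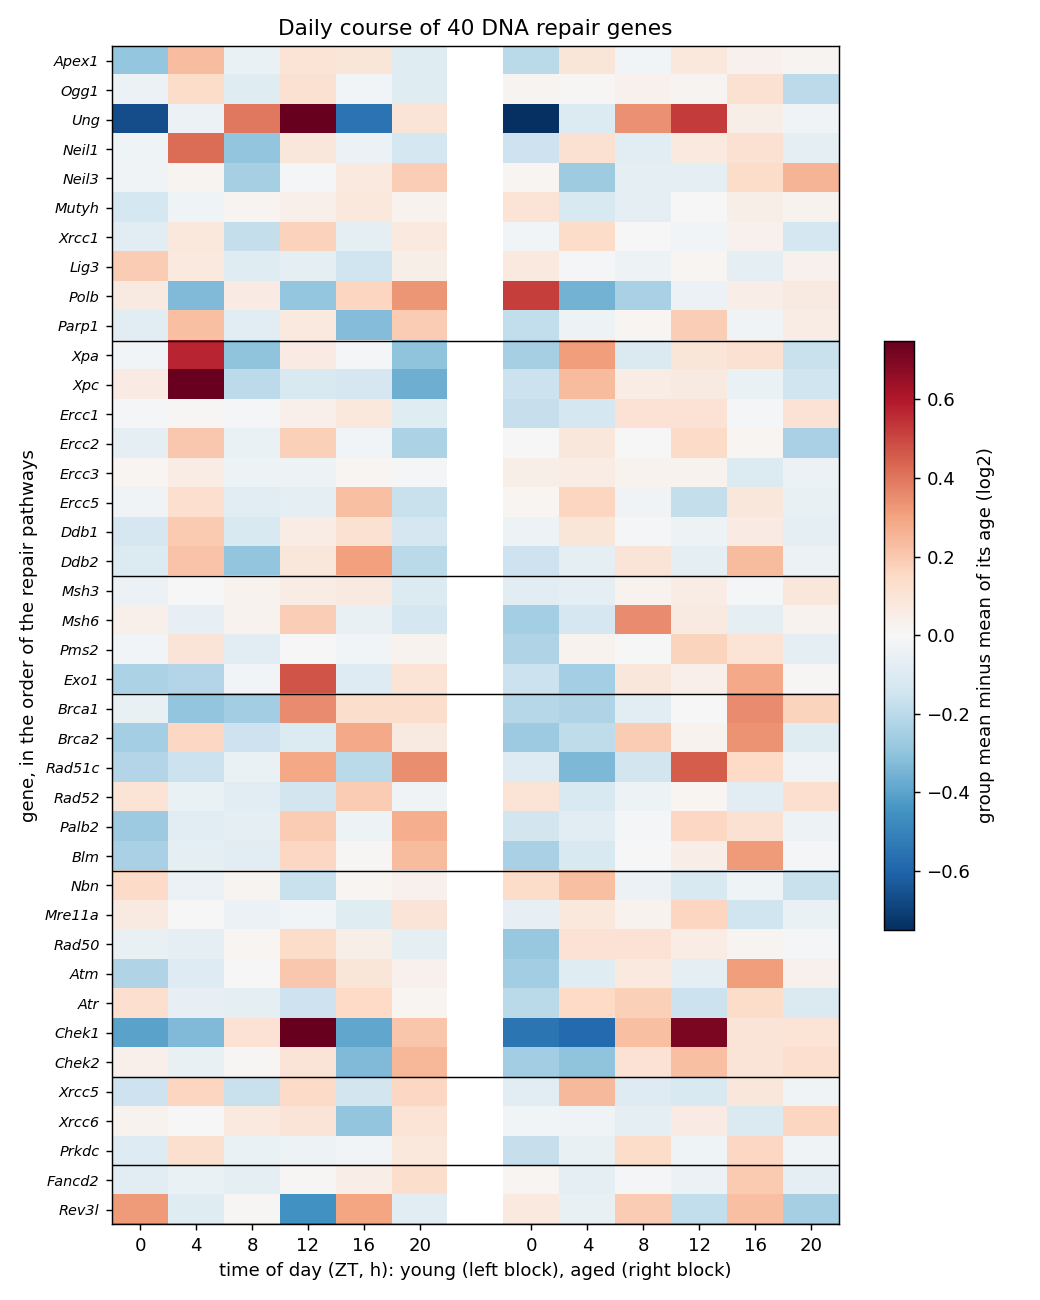
Daily course of the 40 tested repair genes, 1 row per gene in the order of the pathways (lines divide base excision, nucleotide excision, mismatch, recombination, damage signalling, end joining, and Fanconi and translesion genes), with the 6 times of day in hours of ZT for young (left) and aged (right). Colour is the mean of 4 mice minus the mean of that age on the log2 scale, red above and blue below, with values past the ends of the scale shown in the end colour. Ung and Chek1 are deep red at ZT12 in both blocks, and Xpc and Xpa are red at ZT4 in young cells.

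Of the 13 genes that varied in young cells, 7 were highest at ZT4 (Apex1, Neil1, Parp1, Xpa, Xpc, Ddb1 and Xrcc5) and 3 at ZT12 (Ung, Chek1 and Exo1). The others were highest at ZT0 (Rev3l), ZT16 (Ddb2) and ZT20 (Palb2). ZT4 is also when 39.4% of all 2242 genes that varied in young cells were highest, and ZT12 when 12.4% were. In aged cells Ung and Chek1 were again highest at ZT12, Msh6 at ZT8, Brca2 at ZT16 and Neil3 at ZT20.

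Among the base excision genes, Ung had the widest daily swing. It encodes the uracil-DNA glycosylase that removes uracil from DNA and lies on chromosome 5 (114130366 to 114139321, GRCm38). In young cells the 4 mice read 7.20, 6.57, 7.53 and 7.43 at ZT0 and 8.89, 8.73, 8.43 and 8.37 at ZT12. Every ZT12 mouse was above every ZT0 mouse, by 1.42 between the means or 2.68-fold. In between, the young means were 7.80 ± 0.11 at ZT4 and 8.24 ± 0.15 at ZT8, and after the peak 7.29 ± 0.21 at ZT16 and 7.94 ± 0.33 at ZT20 (SD, n = 4 each).

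Aged cells ran a like course in Ung from ZT0 to ZT12. Their mice read 7.42, 7.47, 6.72 and 7.30 at ZT0 and 8.90, 8.52, 8.40 and 8.34 at ZT12, a 2.48-fold difference of means with no overlap. At ZT16 the aged mice read 7.67, 7.98, 8.04 and 8.55 and the young mice 7.60, 7.18, 7.20 and 7.17. The change with time passed in both ages (adjusted p = 3.66e-06 young and 0.000214 aged). The fitted 24 h amplitude, from the mean to the peak, was 0.50 ± 0.11 in young (peak at 10.12 ± 0.86 h) and 0.53 ± 0.11 in aged cells (11.53 ± 0.81 h; SE), with adjusted p = 0.00982 and 0.0157. The interval of the difference of the amplitudes, aged minus young, ran from -0.29 to 0.35 (95%), and the time courses did not pass as different (adjusted p = 0.358). Without aged ZT0 replicate 3, which held the lowest aged value, the aged cosine no longer passed (adjusted p = 0.0709), and without the 4 poorest arrays the young cosine did not (0.0538).

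Genes that replicate DNA were also highest at ZT12. The 15 S phase markers (the Mcm2 to Mcm7 helicase genes, Pcna and others) averaged 7.20 ± 0.20 at ZT0 and 8.00 ± 0.17 at ZT12 in young and 7.14 ± 0.19 and 7.98 ± 0.14 in aged cells. Of the 15, 14 varied with time in young and 13 in aged cells, where 17.5% and 8.36% of all genes did. Over the day 3 of the 15 were higher in aged cells and 0 lower, where 9.89% and 8.73% of all genes were. At ZT16 the list stood at 7.37 ± 0.07 in young and 7.80 ± 0.13 in aged cells. The part of these cells in the course of Ung, Chek1 and Exo1 was not tested.

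Apex1 encodes the main endonuclease that cuts DNA at sites that have lost their base (chromosome 14, 50924949 to 50927188). Over all times it stood at 9.59 ± 0.23 in young and 9.38 ± 0.17 in aged cells (SD, n = 24 each). Young mice read 9.23, 8.98, 9.66 and 9.34 at ZT0 and 9.89, 9.87, 9.85 and 9.69 at ZT4, which is higher in every mouse and 1.43-fold between means. Young cells varied with time (adjusted p = 0.0164), and the call was lost without young ZT0 replicate 2, the lowest mouse (0.0589), and without the 4 poorest arrays (0.0536). In aged cells the means ran from 9.18 ± 0.15 at ZT0 to 9.47 ± 0.05 at ZT4 and the change with time did not pass (0.443).

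Apex1 was also the base excision gene that differed in level between the ages. Over the day young values ran from 8.98 through a median of 9.61 to 9.91, and aged values from 9.03 through 9.42 to 9.65. The ranges overlapped, but 23 of 24 aged mice lay below the young median and the aged mean was the lower at all 6 times. The level, aged minus young, was -0.21 ± 0.06 (SE; 95% interval -0.32 to -0.10), 1.16-fold higher in young (adjusted p = 0.00609). It passed in all 57 alternative settings.

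Neil1, a glycosylase for oxidised bases, had a single high time in young cells. Mice read 7.13, 6.73, 6.57 and 6.61 at ZT4 and 6.01, 6.26, 5.87 and 6.04 at ZT8, a 1.64-fold fall with no overlap (adjusted p for time = 0.0138; 0.0883 without young ZT4 replicate 1 and 0.0631 without the 4 poorest arrays). Aged means stayed between 6.06 ± 0.35 and 6.33 ± 0.08 and did not pass (0.655). The level of Neil1 was -0.13 ± 0.08 (0.248). Neil3, a related glycosylase that acts on single-stranded DNA, varied in aged cells, from 5.33 ± 0.21 at ZT4 to 5.85 ± 0.25 at ZT20 (adjusted p = 0.0346). Its 4 aged mice read 5.33, 5.03, 5.51 and 5.45 at ZT4 and 5.51, 5.85, 6.11 and 5.91 at ZT20. This call was lost without any of 7 single arrays of aged ZT4, ZT16 and ZT20 (0.0501 to 0.124, the highest without aged ZT4 replicate 2). Young means of Neil3 ran from 5.36 ± 0.09 at ZT8 to 5.79 ± 0.15 at ZT20 (adjusted p for time = 0.108).

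Parp1 makes the polymerase that marks broken strands with poly(ADP-ribose). In young cells it was 8.94 ± 0.22 at ZT4 and 8.39 ± 0.01 at ZT16, when the 4 mice read 8.41, 8.38, 8.38 and 8.38. The change with time passed narrowly (adjusted p = 0.0322). It was lost in 10 of 57 alternatives, among them each of the 4 arrays of young ZT16 left out in turn (0.0531 to 0.0728), young ZT4 replicates 1 and 3 (0.0686 and 0.0562) and young ZT20 replicate 2 (0.0532), and all 4 poorest arrays together (0.054). The other probe sets of Parp1, both dimmer, did not pass for time in young cells (adjusted p over all probe sets = 0.646 and 0.0696). With the mean of all its probe sets the change with time did not pass either (0.0756). Aged means lay between 8.50 ± 0.29 and 8.87 ± 0.19 (adjusted p = 0.512).

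The other base excision genes passed no test. Ogg1 and Mutyh, which guard against oxidised guanine, the scaffold Xrcc1, the ligase Lig3 and the polymerase Polb had level differences between -0.04 and 0.11. Mutyh stood at 5.45 ± 0.12 in young and 5.52 ± 0.14 in aged cells. Lig3 had a fitted amplitude of 0.15 ± 0.04 in young cells with a peak at 0.63 ± 1.06 h, which did not pass (adjusted p = 0.0516), and of 0.04 ± 0.04 in aged cells. Its other probe sets had young amplitudes from 0.02 to 0.13, the largest with a peak at 17.22 h.

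**Figure D2:**
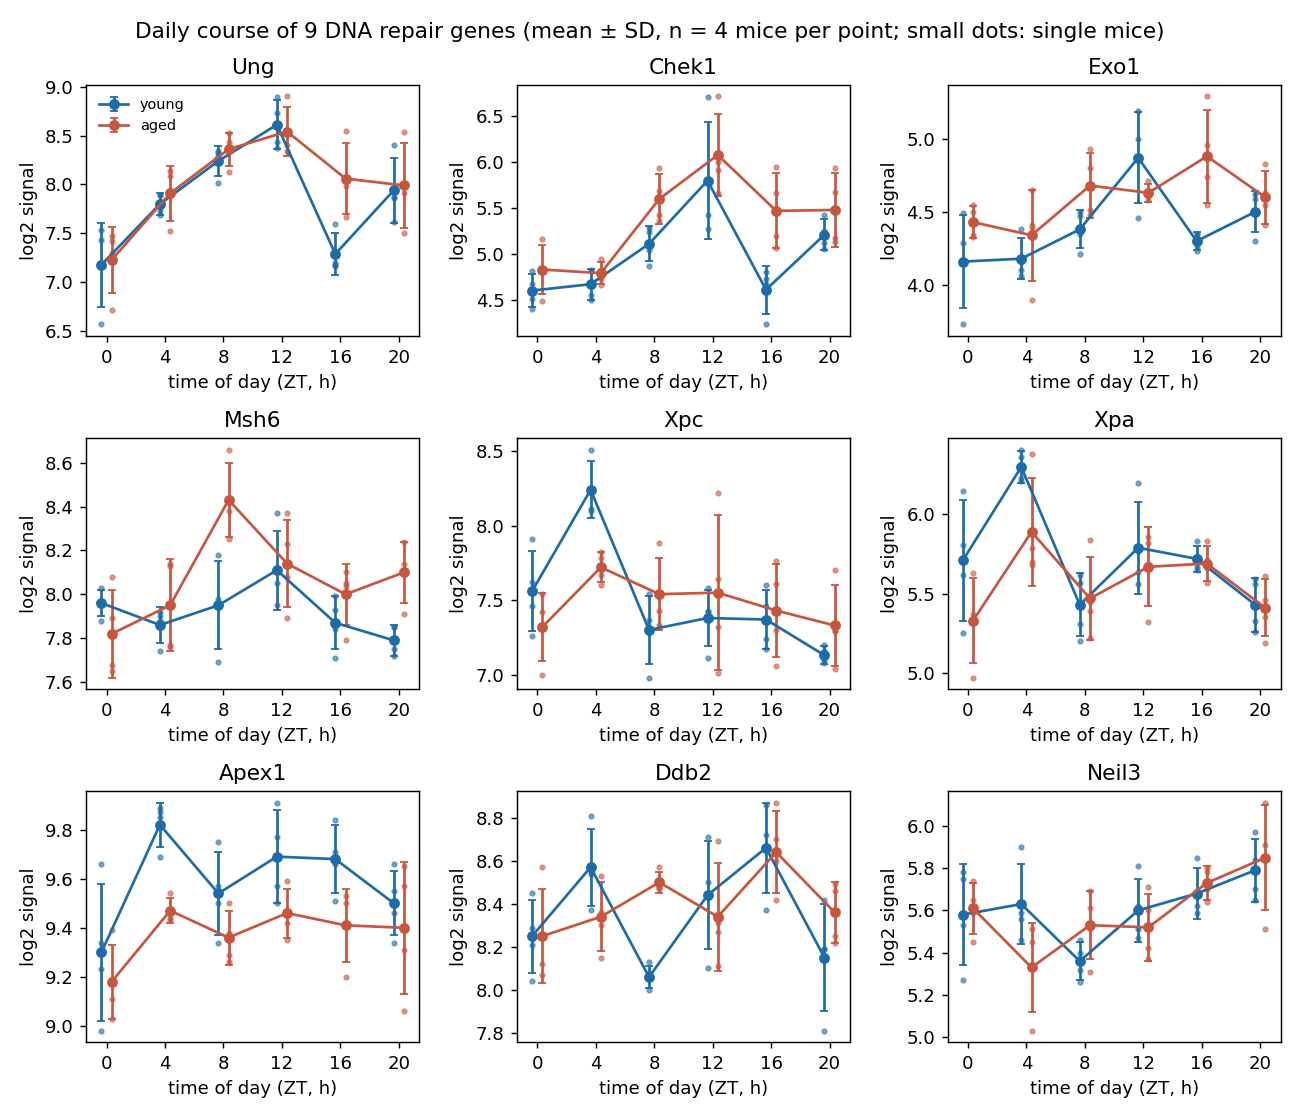
Log2 signal of 9 repair genes over the day (x axis, hours of ZT) in young (blue) and aged (red) cells, with large dots for the mean of 4 mice, bars for the SD and small dots for single mice. Each panel has its own y axis, which does not start at 0. Ung and Chek1 peak at ZT12 at both ages, Xpc and Xpa reach 8.24 and 6.30 at ZT4 in young cells, and the aged means of Apex1 lie below the young ones at all 6 times.

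Of the 8 nucleotide excision genes, 4 varied in young cells (Xpa, Xpc, Ddb1 and Ddb2; 17.5% of all genes), while limma called none of them in aged cells, with 1 (Xpa) at an unadjusted p under 0.05; 8.36% of all genes were called there. When arrays were weighted, Xpa and Ddb2 passed in aged cells as well, and without the 4 poorest arrays Xpa did. Whether the courses differed between the ages did not pass for any of them (adjusted p of the interaction 0.193 for Ddb2, 0.232 for Xpc, 0.610 for Xpa and 0.750 for Ddb1).

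Xpc encodes the sensor that finds helix-distorting lesions (chromosome 6, 91489305 to 91515888). The young mice read 7.46, 7.26, 7.91 and 7.62 at ZT0, 8.51, 8.22, 8.11 and 8.10 at ZT4 and 6.98, 7.54, 7.37 and 7.30 at ZT8. All 4 mice of ZT4 were above all young mice of these and the later times, whose means ran from 7.38 ± 0.19 at ZT12 to 7.13 ± 0.06 at ZT20. From ZT4 to ZT20 the fall was 2.15-fold (adjusted p for time = 0.000194). Aged mice read 7.82, 7.60, 7.67 and 7.78 at ZT4, and their means ran from 7.32 ± 0.23 at ZT0 to 7.72 ± 0.10 at ZT4 (adjusted p = 0.491). The young cosine of Xpc (amplitude 0.35 ± 0.09, peak at 3.95 ± 0.96 h, adjusted p = 0.0266) rested on ZT4: leaving out any 1 of its 4 arrays ended the call (0.066 to 0.105), as did leaving out the 4 poorest arrays (0.0821). The change with time as a factor kept passing in each such fit (at most 0.00335). The difference of the amplitudes, aged minus young, had an interval from -0.44 to 0.06.

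Xpa, which verifies the lesion and holds the repair complex together, had the same high time. Young mice read 6.41, 6.21, 6.23 and 6.36 at ZT4 and 5.31, 5.57, 5.20 and 5.62 at ZT8, a 1.84-fold fall (adjusted p = 0.000907). In aged cells ZT4 was also the highest time, at 5.89 ± 0.34 with 1 mouse at 6.38 and the others between 5.68 and 5.79 (adjusted p for time = 0.0981). The other probe sets of Xpa, both dimmer, did not pass for time in young cells (0.625 and 0.956) and read higher in aged cells (0.19 and 0.28, adjusted p over all probe sets = 0.0473 and 0.0156), where the brightest read -0.15 ± 0.09. With the mean of all its probe sets the change with time did not pass (0.07).

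Ddb1 and Ddb2 form the complex that recognises ultraviolet lesions in chromatin. Ddb2 had 2 high times in young cells, 8.57 ± 0.18 at ZT4 and 8.66 ± 0.21 at ZT16, around a low of 8.06 ± 0.05 at ZT8, where the mice read 8.13, 8.08, 8.05 and 8.00 (adjusted p = 0.00358). Aged mice at ZT8 read 8.48, 8.57, 8.47 and 8.48. Over the day aged means ran from 8.25 ± 0.22 to 8.64 ± 0.19 (0.249). Ddb1 moved less, from 9.17 ± 0.19 at ZT0 to 9.49 ± 0.14 at ZT4 in young cells (1.24-fold, adjusted p = 0.0143; 0.0559 without the 4 poorest arrays).

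No nucleotide excision gene passed for level, where 18.6% of all genes did. Of the 8, 6 read lower in aged cells, where 49.3% of all genes read higher. Ercc5, the nuclease that cuts on the 3' side of the lesion, had a level of -0.13 ± 0.05 (adjusted p = 0.0826), with 19 of 24 aged mice below the young median and the aged mean lower at all 6 times. The helicase gene Ercc2 read -0.11 ± 0.06 (0.207). Ercc1, the partner of the nuclease that cuts on the other side, read 0.05 ± 0.05, and its aged amplitude of 0.12 ± 0.05 had an unadjusted p of 0.0609. The helicase gene Ercc3 read -0.05 ± 0.03.

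In mismatch repair, Exo1 and Msh6 were higher in aged cells while Msh3 and Pms2 did not pass. Msh6 is the partner that lets the recognition complex see single mismatches, and Exo1 is the nuclease that removes the faulty strand. Msh6 ran from 7.69 through a median of 7.92 to 8.37 in young and from 7.65 through 8.09 to 8.66 in aged cells, a level of 0.15 ± 0.05 (adjusted p = 0.0458). Exo1 ran from 3.73 through 4.35 to 5.19 and from 3.90 through 4.57 to 5.29, with 21 of 24 aged mice above the young median (0.20 ± 0.07, adjusted p = 0.0403). Its second probe set read 0.20 as well. Both level calls were marginal: leaving out single arrays ended that of Msh6 for 32 of 48 arrays (0.0502 to 0.0762) and that of Exo1 for 18 (0.0511 to 0.0675), and neither passed once arrays were centred on their medians. Msh3 read -0.10 ± 0.05, and its other probe sets 0.12 and 0.05.

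The daily course of Msh6 passed in aged cells. Its aged mice read 8.43, 8.66, 8.38 and 8.25 at ZT8 and 7.65, 8.08, 7.68 and 7.89 at ZT0, a 1.52-fold difference without overlap (adjusted p for time = 0.00434; at most 0.0314 in the alternatives). In young cells ZT12 was highest, at 8.11 ± 0.18, and time did not pass (0.248). Exo1 varied in young cells, from 4.16 ± 0.32 at ZT0 to 4.87 ± 0.31 at ZT12 (adjusted p = 0.0035), with mice at 4.15, 3.73, 4.49 and 4.29 and at 5.19, 5.0, 4.86 and 4.46, so the groups overlapped by 1 mouse on each side. Aged Exo1 was highest at ZT16, at 4.88 ± 0.32 (0.104), and passed there with array weights and without the 4 poorest arrays. The interaction of age and time had unadjusted p = 0.00885 for Msh6 and 0.0128 for Exo1, and did not pass over all genes (0.141 and 0.169).

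Of the 6 recombination genes, 1 passed for time in young cells (17.5% of all genes did) and 1 in aged cells (8.36%). Without adjustment 5 and 4 of them were under 0.05, against 32.4% and 22.7% of all genes. The median of their amplitudes was 0.15 (young) and 0.23 (aged), against 0.09 and 0.08 for all genes. The amplitude was larger in aged cells for 3 of the 6, and for 40.2% of all genes. For level 1 of the 6 was higher and 1 lower in aged cells, where 9.89% and 8.73% of all genes were. Rad52, which anneals single strands, was lower in aged cells. It ran from 7.51 through a median of 7.92 to 8.15 in young and from 7.29 through 7.62 to 8.00 in aged cells, with 23 of 24 aged mice below the young median and 5 below every young mouse. The level was -0.26 ± 0.05 (95% interval -0.37 to -0.16), 1.20-fold higher in young (adjusted p = 0.00029), and it passed in all 57 alternatives. The second probe set of Rad52 read -0.35 (adjusted p over all probe sets = 0.00387) and, unlike the first, varied with time in young and aged cells (0.00448 and 0.0167).

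Blm, the helicase that dissolves recombination intermediates, was higher in aged cells. Young values ran from 5.02 through 5.59 to 6.09 and aged values from 5.33 through 5.73 to 6.20, and the aged mean was higher at 5 of 6 times (0.20 ± 0.06, adjusted p = 0.0239; 0.0604 with arrays centred on their medians). Brca2, which loads the recombinase on single strands, varied in aged cells. Its aged mice read 5.11, 5.26, 5.13 and 4.97 at ZT0 and 5.67, 5.61, 6.06 and 5.59 at ZT16 (1.53-fold, no overlap, adjusted p = 0.0449). Leaving out single arrays ended this call for 21 of 48 arrays (0.0503 to 0.137, the highest without aged ZT16 replicate 3).

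Palb2, the link between Brca1 and Brca2, varied in young cells, from 4.58 ± 0.07 at ZT0 to 5.12 ± 0.24 at ZT20 (adjusted p = 0.0302). The mice read 4.48, 4.64, 4.58 and 4.60 and then 4.86, 5.31, 5.33 and 4.98, without overlap. The call was lost without young ZT0 replicates 1 or 4 (0.0637, 0.0503), young ZT12 replicate 1 (0.0516) or young ZT20 replicates 2 or 3 (0.0782, 0.0787), and without the 4 poorest arrays (0.0636). Brca1 had amplitudes of 0.28 ± 0.08 (young) and 0.27 ± 0.08 (aged), with peaks at 15.88 ± 1.10 and 16.16 ± 1.14 h (adjusted p = 0.0618 and 0.179). A second, slightly dimmer probe set of Brca1 passed for time at both ages (adjusted p over all probe sets = 0.000692 and 0.00374), with amplitudes of 0.45 in each. Rad51c, a paralogue of the recombinase, had amplitudes of 0.14 ± 0.09 and 0.30 ± 0.09 (0.585 and 0.177).

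**Figure D3:**
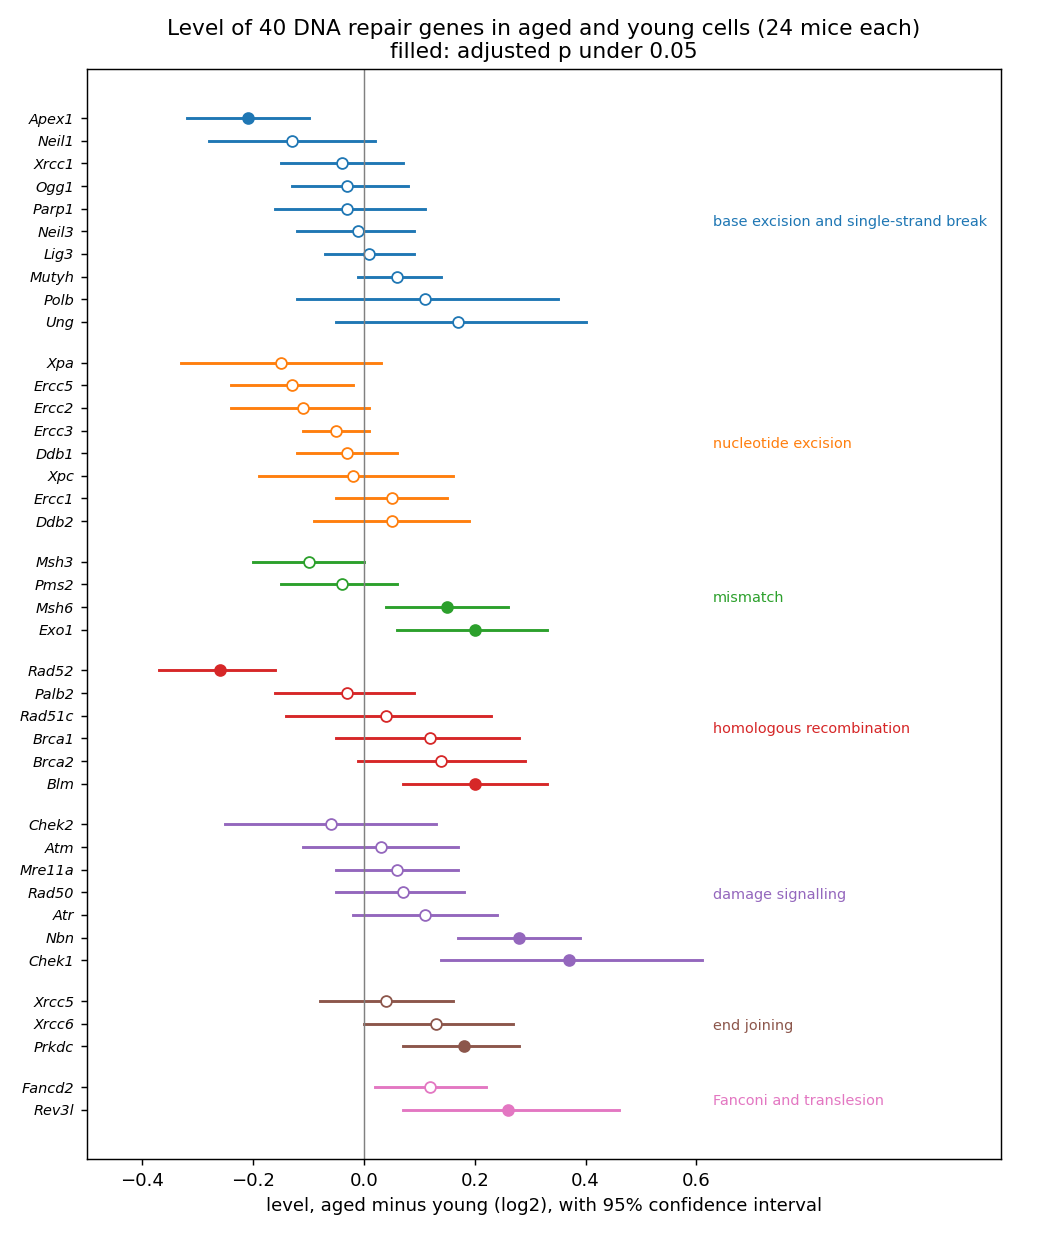
Level of the 40 tested repair genes, aged minus young, on the log2 scale (x axis) with 95% confidence intervals from the fit to 24 mice per age, grouped by pathway in colour and sorted within it. Filled dots passed at adjusted p under 0.05: 7 to the right of 0, with Chek1 farthest at 0.37, and Apex1 and Rad52 to the left.

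In damage signalling, Chek1 and Nbn were higher in aged cells and the other genes did not pass. Chek1 encodes the kinase that holds the cell cycle when replication forks stall (chromosome 9, 36708482 to 36726658). In young cells its mice read 4.51, 4.40, 4.67 and 4.81 at ZT0, 6.71, 5.80, 5.43 and 5.27 at ZT12 and 4.80, 4.23, 4.73 and 4.67 at ZT16. All ZT12 mice were above all mice of these other times, and 1 of them, at 6.71, stood above the rest. Aged mice read 5.16, 4.81, 4.49 and 4.84 at ZT0, 5.92, 6.72, 6.00 and 5.67 at ZT12 and 5.06, 5.20, 5.66 and 5.95 at ZT16.

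Time passed for Chek1 at both ages (adjusted p = 0.000267 young and 0.000314 aged), with 2.31-fold and 2.44-fold between the highest and lowest means. The fitted amplitude was 0.38 ± 0.12 in young (peak at 12.12 ± 1.19 h, adjusted p = 0.0969) and 0.57 ± 0.12 in aged cells (13.10 ± 0.78 h, 0.0109). Their difference had an interval from -0.14 to 0.53 and the time courses did not pass as different (0.610). The level was 0.37 ± 0.12 higher in aged cells, 1.30-fold (adjusted p = 0.0192), with the aged mean higher at all 6 times and 18 of 24 aged mice above the young median. The other 4 probe sets of Chek1 read 0.05 to 0.23. Those above the dim limit did not pass for level (0.14 and 0.05, adjusted p over all probe sets = 0.21 and 0.382). The dim ones, at 0.23 and 0.14, did (0.0188 and 0.0481). The level of Chek1 passed in the 56 alternatives that tested it, with values from 0.19 to 0.44, but narrowly without the 4 poorest arrays (0.0498).

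Nbn is a subunit of the complex that binds broken ends and calls the kinase Atm, and it had the smallest p for level of the 40. Young values ran from 7.23 through a median of 7.50 to 8.07 and aged values from 7.47 through 7.78 to 8.22. 23 of 24 aged mice were above the young median and the aged mean was higher at all 6 times. The gap was widest at ZT4, where the aged mice read 7.99, 8.22, 7.88 and 7.91 and the young mice 7.35, 7.40, 7.30 and 7.75. T cell markers were also highest at aged ZT4 (4.99 ± 0.51, against 4.35 ± 0.13 in young), and their part in the course of Nbn was not tested. The level was 0.28 ± 0.05 (95% interval 0.17 to 0.39), 1.21-fold (adjusted p = 0.000144), and passed in all 57 alternatives. The aged amplitude was 0.15 ± 0.05 (0.324). Its partners Mre11a and Rad50 read 0.06 ± 0.05 and 0.07 ± 0.06, the kinases Atm and Atr 0.03 ± 0.07 and 0.11 ± 0.07, and Chek2 -0.06 ± 0.10. A dimmer probe set of Atr read 0.30 (adjusted p over all probe sets = 0.00251).

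In end joining, Prkdc was higher in aged cells and Xrcc5 varied in young cells. Prkdc encodes the catalytic subunit of the DNA-dependent kinase, and Xrcc5 and Xrcc6 the Ku ring that holds the ends. Prkdc ran from 5.64 through 6.00 to 6.21 in young and from 5.67 through 6.11 to 6.50 in aged cells, with 22 of 24 aged mice above the young median (0.18 ± 0.05, adjusted p = 0.0104, in all 57 alternatives). Xrcc5 mice in young cells read 7.78, 7.89, 7.81 and 7.84 at ZT4 and 7.39, 7.61, 7.50 and 7.50 at ZT8 (1.26-fold, adjusted p for time = 0.0255). Aged Xrcc5 was highest at ZT4 too, at 7.95 ± 0.04 (0.155), and passed there with array weights and without the 4 poorest arrays. Xrcc6 read 0.13 ± 0.07 for level (0.175).

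Rev3l, the catalytic subunit of the polymerase that copies past lesions, was higher in aged cells (0.26 ± 0.10, adjusted p = 0.0492). Young values ran from 6.09 through 7.47 to 7.89 and aged values from 7.15 through 7.54 to 8.11. The call was lost without any of 30 single arrays (0.0505 to 0.0843), and the other probe sets read 0.11 and 0.00. In young cells Rev3l was lowest at ZT12, where the mice read 7.13, 6.09, 7.11 and 7.27 (adjusted p for time = 0.0327). Without the mouse at 6.09 that p was 0.122, and it was 0.0505, 0.0664 and 0.0509 without young ZT0 replicate 2 or young ZT16 replicates 3 or 4. Fancd2, the protein that marks crosslinks for repair, read 0.12 ± 0.05 (0.0946), with an amplitude of 0.09 ± 0.05 in young cells.

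Across all pathways 9 of 40 genes (22.5%) differed in level between the ages, where 18.6% of all genes tested did. Of these 7 were higher in aged cells (9.89% of all genes were) and 2 lower (8.73%). At an unadjusted p under 0.05 there were 11 of the 40, against 30.4% of all genes. The median level of the 40 genes was 0.04, with 23 above and 17 below 0, and the median of all genes was 0.00. The split depends on the scaling: with each array centred on its median, 6 genes passed, 3 higher (Chek1, Nbn and Prkdc) and 3 lower (Apex1, Rad52 and Ercc5), and the share of higher genes among all level calls went from 53.1% to 39.7%.

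**Figure D4:**
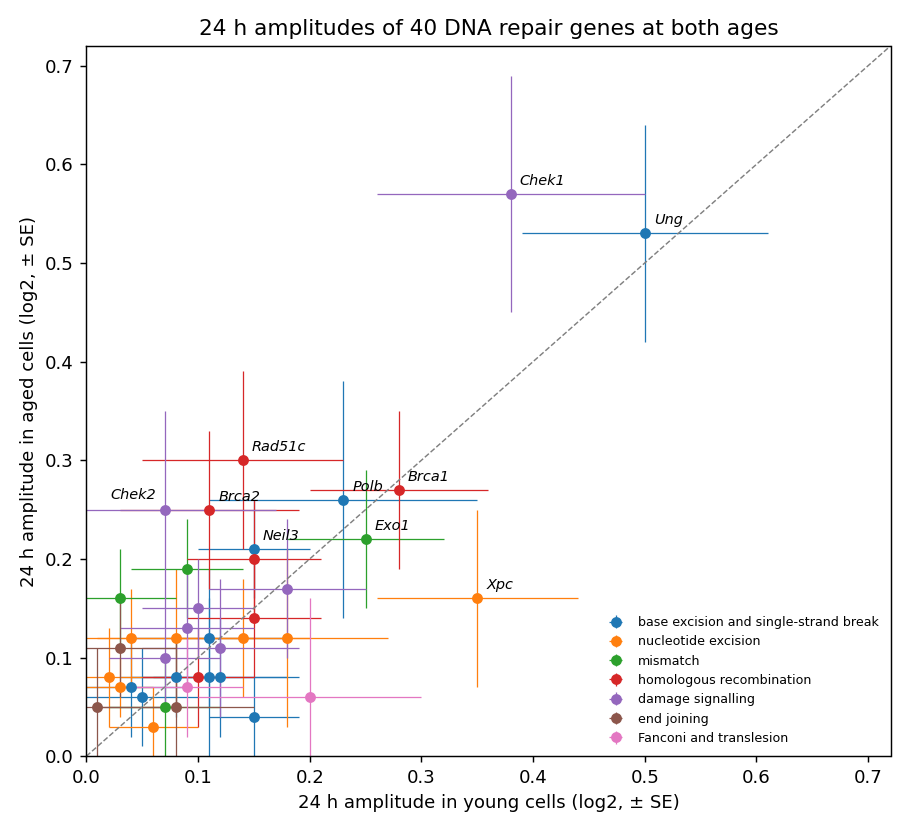
Fitted 24 h amplitude (log2, from mean to peak) of the 40 repair genes in young (x axis) and aged cells (y axis), with bars of 1 SE cut at 0 and a dashed line of equal amplitude; colours mark the pathways. Ung lies near the line at 0.50 and 0.53, Chek1 above it, Xpc below it, and most genes lie under 0.2 on both axes.

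Whether the daily course itself differed between the ages was tested directly. For the 24 h cosine no gene passed, neither among the 40 nor among all genes (limma, 0%). At an unadjusted p under 0.05 there were 0 of the 40, where 7.66% of all genes were. With time as a factor 0 of the 40 passed, against 2.59% of all genes. Here 4 had an unadjusted p under 0.05 (Msh6, Exo1, Ddb2 and Xpc), against 15.3% of all genes. Array weights gave 6 (Ung, Xpc, Ddb2, Msh6, Exo1 and Prkdc) where 12.3% of all genes passed. The median amplitude of the 40 was 0.10 in young and 0.12 in aged cells, and that of all genes 0.09 and 0.08.

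Promoter sequences are shown for 3 genes highest at ZT4 in young cells whose window holds an E-box. Of the 7 genes highest then, Xpc has no window, and Neil1, Xpa and Ddb1 hold no E-box in theirs. An E-box, CACGTG (the same on both strands), is the word bound by the clock factors Clock and Bmal1. RefSeq windows of GRCm38.p6, from 250 bases before to 50 after the start of transcription, were given for 32 of the 42 genes. The stretches from 200 to 11 bases before the start follow, 5′ to 3′ on the strand of the gene, with the E-box in capitals. They are Apex1 at chr14:50924749-50924938 (plus strand), Parp1 at chr1:180568691-180568880 (plus), Xrcc5 at chr1:72307221-72307410 (plus) and, for comparison, the ZT12 gene Chek1 at chr9:36726669-36726858 (minus).
Apex1: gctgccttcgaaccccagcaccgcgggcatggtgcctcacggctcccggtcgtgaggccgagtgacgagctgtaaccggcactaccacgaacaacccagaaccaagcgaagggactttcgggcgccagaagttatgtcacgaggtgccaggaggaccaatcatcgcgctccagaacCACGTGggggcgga
Parp1: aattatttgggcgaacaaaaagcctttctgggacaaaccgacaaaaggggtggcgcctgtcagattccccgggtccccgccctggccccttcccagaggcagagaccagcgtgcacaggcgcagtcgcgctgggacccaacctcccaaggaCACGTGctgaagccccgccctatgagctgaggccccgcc
Xrcc5: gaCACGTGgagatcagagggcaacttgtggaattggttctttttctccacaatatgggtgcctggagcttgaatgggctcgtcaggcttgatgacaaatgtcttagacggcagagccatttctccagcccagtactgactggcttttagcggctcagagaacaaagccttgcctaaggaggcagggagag
Chek1: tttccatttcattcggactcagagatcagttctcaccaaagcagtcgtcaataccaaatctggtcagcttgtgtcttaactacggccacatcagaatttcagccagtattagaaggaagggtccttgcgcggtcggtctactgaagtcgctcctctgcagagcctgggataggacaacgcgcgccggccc
The E-box begins 24 bases before the start in Apex1, 49 in Parp1 and 198 in Xrcc5, and Apex1 holds further copies at and after its start. In all, 4 of the 32 genes (12.5%) held an E-box, these 3 and Lig3, where 8.09% of all 27025 genes with a window did (7.15% of the 32851 windows). E2F words, bound by the factors that drive S phase genes (TTTCCCGC, TTTCGCGC, TTTGCCGC or TTTGGCGC on either strand), were found in 6 of 32 (18.8%; 2.6% of all genes and 2.26% of all windows): Msh3, Msh6, Brca2, Rad51c, Chek2 and Xrcc6. Neither Ung nor Chek1 held 1 of these words in this window. D-box words (TTATGTAA, TTACGTAA or TTATATAA), bound by the clock output factors, were in none of the 32 and in 1.86% of all genes (1.59% of all windows). A match is a run of letters and does not show binding.

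Other repair genes served as background for the same pathways. Of 113 listed, 94 were on the array with 1 symbol and 90 were tested. In young cells 23 of the 90 (25.6%) varied with time, against 17.5% of all genes, and in aged cells 11 (12.2%), against 8.36%. The level differed for 10 (11.1%), against 18.6% of all genes, 8 higher and 2 lower in aged cells. The interaction of age and time passed for 1 of the 90, Wee1, against 2.59% of all genes. The cosine passed for 9 in young cells and 4 in aged cells, where 6.27% and 1.36% of all genes passed. Of the other repair genes, Timeless and Lig1 had high amplitudes. Timeless, a fork protection gene, had an amplitude of 0.46 in young cells and of 0.63 in aged ones, peaking at 12.76 and 12.77 h (adjusted p = 0.0162 and 0.00134). Lig1, the ligase that joins Okazaki fragments, had 0.37 and 0.45 with peaks at 13.03 and 13.67 h (0.0168 and 0.00677).

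Rpa2, a subunit of the single-strand binding protein, passed the cosine in aged cells (amplitude 0.38, adjusted p = 0.00689; 0.15 and 0.431 in young). Rad18, the ligase that starts translesion synthesis, varied in young and aged cells (adjusted p for time = 0.000168 and 0.01) and was higher in aged cells (0.24, 0.0108). Uvssa varied at both ages too (0.000281 and 0.0169), and Ercc4, the nuclease partner of Ercc1, in young cells (0.000314). Bard1 varied at both ages as well (0.00873 and 0.0496). Rad51b, Rev1, Fancm, Smug1, Poll and Alkbh2 varied in young cells (adjusted p between 0.0015 and 0.0466), and Rad51b was also lower in aged cells (-0.23, 0.0279). For level, Mdc1, the mediator that binds marked chromatin, was higher in aged cells by 0.29 ± 0.04 (adjusted p = 3.21e-06), and so were Alkbh3 (0.36), Xrcc3 (0.32) and Tdg (0.18). Paxx, an end joining factor, fell by 0.29 (0.000637). None of the mismatch genes of this list passed for time or level at an adjusted p under 0.05.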

How the data were processed

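RNA of 48 mice was measured on 1-colour Affymetrix arrays, 4 mice per age and time. The deposited values are log2 signals of 45141 probe sets made by the authors with RMA, per the submitters' processing notes; the sources used here give neither its version nor whether the arrays were normalised in 1 run. Total RNA was amplified before labelling, per the labels' protocols. RMA sets the arrays to a shared distribution, so levels are relative within an array, and the number of arrays limits the precision.

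Of the probe sets, 28898 had 1 gene symbol, 551 several and 15692 none. The set of highest mean stood for a gene, and the dimmest 25% of genes (under log2 3.96) were left out. limma 3.58.1 in R 4.3.3 fitted to all 48 arrays a cosine of period 24 h per age (level, rhythm and their difference) and a model of the groups of age and time (change with time and its interaction with age); Benjamini-Hochberg adjustment ran over all 12823 genes. Both models were also run on simulated data with independent normal noise. Those data held no poorly fitting arrays, so they cannot show how the calls behave with such arrays. Errors are SD over mice or SE of the fit, and intervals are 95%. The labels give each array as a separate mouse sample, and p-values measure the spread between these samples. Replicate numbers did not pair the mice (mean correlation of residuals -0.000737 over 264 same-numbered pairs).

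The members and lists were chosen with earlier results of these data known. Values are given for members that passed any of the 7 tests, for the 2 of each pathway with the smallest p for level and for either cosine, for the 2 brightest and for dim ones, and for up to 3 other repair genes per list. Promoter windows came from RefSeq (GRCm38.p6), and gene positions are of GRCm38. Alternatives changed the filter, scaling, weights, moderation, probe sets, block or arrays used.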

Additional observations from a re-analysis of the deposited data

Results flagged for a closer look

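Among the 20 repair genes that passed any test, 17 of 240 groups of 4 mice (7.08%) had 1 mouse whose gap to the nearest other was a larger part of the group's range than Dixon's 95% critical value, where chance gives about 1 in 20 groups. The lower mice were Blm in aged ZT8 replicate 2 at 5.57 (others 5.73 to 5.76), Nbn in the same mouse at 7.52 (7.79 to 7.81) and in aged ZT12 replicate 3 at 7.52 (7.70 to 7.72), Palb2 in aged ZT20 replicate 1 at 4.50 (4.83 to 4.89) and Parp1 in aged ZT4 replicate 2 at 8.54 (the others all at 8.69). Prkdc in aged ZT0 replicate 3 was at 5.67 (6.03 to 6.08), Rad52 in aged ZT12 replicate 1 at 7.29 (7.72 to 7.80), and Ung in young ZT8 replicate 3 at 8.02 (8.29 to 8.34). Rev3l was low in young ZT12 replicate 2 at 6.09 (7.11 to 7.27) and in young ZT20 replicate 4 at 6.66 (7.44 to 7.54).

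The higher mice were Ddb2 in aged ZT8 replicate 2 at 8.57 (8.47 to 8.48), Neil1 in aged ZT4 replicate 3 at 6.45 (6.28 to 6.30), Palb2 in the same mouse at 4.90 (4.66 to 4.70) and Parp1 in young ZT16 replicate 1 at 8.41 (the others all at 8.38). Rad52 in young ZT4 replicate 1 was at 8.12 (7.74 to 7.77), Ung in young ZT16 replicate 1 at 7.60 (7.17 to 7.20) and Xpa in aged ZT4 replicate 1 at 6.38 (5.68 to 5.79).

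Wee1, which encodes the kinase that delays entry into mitosis, was the other repair gene whose time course differed between young and aged cells (limma, adjusted p of the interaction = 0.0019). Its young means ran 9.91, 9.27, 10.34, 10.16, 10.13 and 9.46 from ZT0 to ZT20 and its aged means 10.18, 10.61, 10.06, 10.17, 10.35 and 10.09, so that ZT4 was the lowest time in young and the highest in aged cells.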

How the results depend on the processing

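Of the 31 passes of a repair gene in a test, 15 held in every alternative that tested the gene and none changed direction; Chek1 and Exo1, among these, were tested in 56 of the 57 and left out as dim in the other. Array weights gave more calls: 6 genes with a cosine in young and 8 in aged cells, 20 and 15 that varied with time, 6 whose time course differed between the ages, and 59 other repair genes that passed any test (32 in the fit reported), where 18.1%, 4.69%, 37.9%, 28.1% and 12.3% of all genes passed the 5 tests. Without the 4 arrays of lowest weight, 1 gene had a cosine in young cells (4.54% of all genes) and 11 varied in aged cells (16.5%). Leaving out the dimmest 50% of genes gave 3 genes that varied in aged cells (11.3% of all genes), because Brca2 and Chek1 were then left out as dim and not tested. Leaving out single arrays gave 6 to 9 genes with a level difference, 1 to 4 and 1 to 3 with a cosine in young and aged cells, 11 to 15 and 3 to 6 that varied with time, and 0 to 0 for either difference of courses, with 26 to 37 other repair genes. Of all genes, 16.9% to 20.2% then differed in level, and 4.37% to 9.26% and 0.905% to 2.45% had a cosine. Between 13.4% and 22.5% varied with time in young and between 6.63% and 11.9% in aged cells. The course differed for 0% to 0.0312% (cosine) and 1.93% to 4.47% (time as a factor). The cause of the other changes was not tested.

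Replicate numbers are shared across groups but did not pair the mice. With the number as a replicate block 8 genes differed in level, 2 and 2 had a cosine in young and aged cells, 13 and 4 varied with time and 0 differed in course (either test). Of all genes, 18% then differed in level, 5.69% and 1.28% had a cosine, and 16.4% and 8.05% varied with time. The course differed for 0% (cosine) and 2.44% (time as a factor). The number of arrays limits what small differences can be called, and genes near the dim limit, such as Exo1, have less signal over background.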
